A study of Mus musculus with 40 samples.

Results

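The change of H3K27ac between wild type preadipocytes (WT, day 0) and the brown-like adipocytes made from them (WT, day 9) was described from the peak lists of 6 of the 24 H3K27ac libraries of the series, 3 at each day. Both groups were C57BL/6 cells of the Wild type genotype from inguinal white adipose tissue of young adult mice, grown on collagen. Day 0 cells had no inducers, and day 9 cells had been given insulin, dexamethasone, IBMX, T3 and rosiglitazone for 4 days and then insulin and T3 for 4 days. The other libraries come from WT cells at days 3 and 6 and from cells without HMGN1 and HMGN2 (DKO), and they are used below only to follow the same regions and genes. Overlapping peaks (1 bp or more) of the 6 lists were merged into 165442 regions, against 169358 for all 24 lists. The labels number the replicates but tie none to an animal, so the p-values measure the spread between these cultures. The cells are a bulk culture, in which fewer cells of a type and less acetylation per cell cannot be told apart.

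H3K27ac is an acetyl mark on histone H3 that marks active promoters and enhancers, and enhancers change more between cell types than promoters do. Fat cell formation is driven by the nuclear receptor PPARγ and the C/EBP factors, which open enhancers at genes of lipid storage. Brown-like adipocytes also burn fuel to make heat, through genes such as Ucp1. In the medium, dexamethasone activates the glucocorticoid receptor, IBMX raises cAMP and rosiglitazone is a PPARγ ligand.

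Sequences around short motifs in the strongest regions that appeared or vanished are shown first, because later results refer to these places. All were read on the plus strand of GRCm38 (the build of mm10), in lower case, with the motif in capitals. The glucocorticoid receptor motif is ACANNNTGT, the C/EBP motif TTGCNNAA, the AP-1 motif TGANTCA and the RUNX motif AACCACA, each searched on both strands. The motif lay 49 bp, 162 bp and 100 bp from the summit in the first 3 sequences of the gained regions, in the order given, and 20 bp from it in the next.
Gained, Zbtb16 intron, glucocorticoid receptor motif, chr9:48737149-48737207: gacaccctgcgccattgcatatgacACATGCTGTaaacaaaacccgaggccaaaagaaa
Gained, Zbtb16 intron, C/EBP motif, chr9:48744866-48744923: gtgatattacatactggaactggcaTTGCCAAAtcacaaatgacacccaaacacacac
Gained, Zhx3 intron, glucocorticoid receptor motif, chr2:160805851-160805909: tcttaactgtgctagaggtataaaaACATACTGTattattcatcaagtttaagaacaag
Gained, 333 kb from the start of Foxo1, AP-1 motif, chr3:52600937-52600993: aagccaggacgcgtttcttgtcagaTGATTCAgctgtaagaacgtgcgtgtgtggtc
Lost, Itgam promoter, AP-1 motif, chr7:128062949-128063005: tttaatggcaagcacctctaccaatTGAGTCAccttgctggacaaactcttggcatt
Lost, 42.0 kb from the start of Runx1, C/EBP motif, chr16:92868151-92868208: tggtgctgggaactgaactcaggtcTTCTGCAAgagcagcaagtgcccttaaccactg
Lost, Stk10 intron, RUNX motif, chr11:32542335-32542391: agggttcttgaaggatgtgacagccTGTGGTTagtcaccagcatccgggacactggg
The Stk10 window also holds a glucocorticoid receptor motif, ACAGCCTGT, that is not marked. Lost regions near Gm9817 and at F830045P16Rik held this motif as well, so it was not particular to gained regions. These letters describe the windows only, and factor binding was not measured.

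Promoter sequences (RefSeq, GRCm38.p6, 250 bases before to 50 after the start) of 2 genes are shown for the same reason. Plin1 coats the lipid droplet of adipocytes, and its promoter overlapped 2 regions gained at day 9. Cass4, a docking protein of the Cas family, lay among the genes with the largest loss, and its promoter overlapped a region called in 3 of 3 libraries at day 0 and in none at day 9. Capitals in the Plin1 sequence mark 2 C/EBP motifs and 1 EBF motif (CCCNNGGG, the second in order), and in the Cass4 sequence 1 RUNX motif. Of 32851 promoters of this length, 10.8% held the C/EBP, 13.7% the EBF and 5.27% the RUNX motif.
Plin1, chr7:79732727-79733026, minus strand: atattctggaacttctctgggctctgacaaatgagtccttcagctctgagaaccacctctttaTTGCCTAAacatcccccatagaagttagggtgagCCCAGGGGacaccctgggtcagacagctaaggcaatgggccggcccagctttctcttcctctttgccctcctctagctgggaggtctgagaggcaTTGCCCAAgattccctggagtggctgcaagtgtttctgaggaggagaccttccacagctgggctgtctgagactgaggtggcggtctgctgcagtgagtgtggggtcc
Cass4, chr2:172393394-172393693, plus strand: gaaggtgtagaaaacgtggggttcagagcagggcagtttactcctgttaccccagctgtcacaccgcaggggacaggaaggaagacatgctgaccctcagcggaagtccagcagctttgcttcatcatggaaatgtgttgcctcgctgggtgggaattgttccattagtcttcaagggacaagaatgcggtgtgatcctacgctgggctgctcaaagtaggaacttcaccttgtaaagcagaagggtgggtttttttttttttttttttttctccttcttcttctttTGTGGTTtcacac

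The number of peaks and the length they covered overlapped between the days. Day 0 lists held 96853, 108437 and 102121 peaks and day 9 lists 91488, 111761 and 105173 (exact permutation test over 20 relabellings, two-sided, p = 1.00). The peaks covered 46.1, 54.6 and 50.9 Mb at day 0 and 48.2, 59.6 and 58.6 Mb at day 9, a mean difference of 4.89 Mb (exact permutation p = 0.300). With the 20000 strongest peaks of each list the difference in covered length was 3.02 Mb (exact permutation p = 0.1). Median peak width was 336 bp ± 7.81 (SD, n = 3) at day 0 and 353 bp ± 10 (SD, n = 3) at day 9, and the groups did not overlap (exact permutation p = 0.1, the lowest value possible with 20 relabellings). The local background of the 6 libraries, a proxy of their relative depth, held 9.50 to 11.8 reads per kb.

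The positions of the mark differed between the days. The Jaccard index of base pairs, the shared length of a pair of libraries over their joint length, averaged 0.600 within a day and 0.434 between days, and the lowest within-day pair (0.586) stood above the highest between-day pair (0.440). The difference of 0.166 had p = 0.1 (exact permutation test, one-sided, over 10 splits, the smallest they allow). Of the 165442 regions, 9416 (5.69%) had a peak in each of the 3 day 9 libraries but in no day 0 library, and are called gained. Another 8879 (5.37%) showed the reverse and are called lost, and 37389 (22.6%) were called in all 6 libraries and are called held. The remaining 109758 were called in another mix and had a median width of 264 bp. Just outside the rule stood 10276 regions with a peak in 2 day 9 libraries and no day 0 library, 4084 with peaks in 3 and 1, and for the loss 9273 and 4088. Counts of gained and lost regions rest on single libraries, since 15915 were gained without WT day 9 replicate 1 and 13521 were lost without WT day 0 replicate 1.

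Gained and lost regions were distal more often than held ones. Of gained regions 13.2% lay at a promoter (within 1 kb of an annotated transcript start), of lost regions 15.5% and of held regions 51.6%, while introns held 48.6%, 48.7% and 27.8%. Of the regions called in another mix 14.2% lay at a promoter, and of all regions 22.7%. A low promoter share was therefore not particular to gained and lost regions. Summits of gained and lost regions were also lower in rank than those of held ones. Within a list every peak was ranked by its −log10 q, from 0 for the weakest to 100 for the strongest, and the median percentile of gained regions at day 9 was 47.7, of lost regions at day 0 46.2, and of held regions 77.5 and 78.5 at days 0 and 9. Regions called in another mix ranked lower still, at 26.2 and 26.0. Gained regions were a little wider than lost ones, with a median of 563 bp against 511 bp, and 132 gained against 45 lost regions reached 2 kb. These are descriptions of the sets, with no test.

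**Figure D1:**
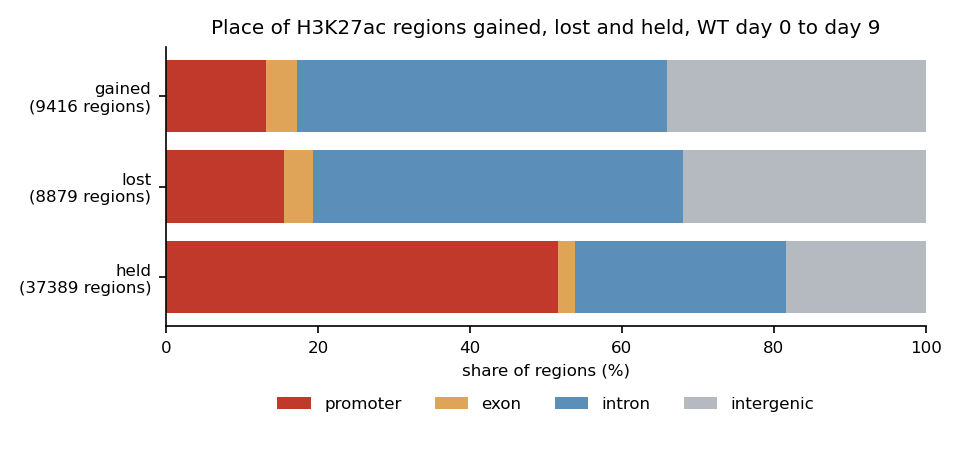
Share of gained, lost and held regions (%, horizontal axis) at promoters, exons, introns and between genes, for the 6 WT libraries of days 0 and 9. Promoters make up 51.6% of the held set but 13.2% of the gained and 15.5% of the lost set.

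The gained set was led by 1 gene. Of the 10 gained regions with the highest median percentile, 6 lay in Zbtb16, which encodes the zinc finger transcription factor PLZF. The strongest of them, chr9:48727384-48737577 in an intron, was 10194 bp wide and ranked at percentiles 99.7, 99.7 and 99.8 in the day 9 libraries, with no peak in any day 0 library. The Zbtb16 promoter region, chr9:48831539-48836288, ranked at 95.9, 98.9 and 99.0. Next to these stood chr17:28518252-28519717, 0.957 kb from a start of Fkbp5, a chaperone gene known for its induction by glucocorticoids, at percentiles 99.7, 99.4 and 99.9. The others were the intergenic region 333 kb from Foxo1, an intron of Zhx3 and the promoter of Gprc5b, an orphan receptor gene. All 10 were called in each of the 3 WT libraries of day 3 and of day 6. The regions at the Zbtb16 promoter, near Fkbp5 and at the Gprc5b promoter were also called in all 3 DKO libraries of day 0, so their absence at day 0 held for the WT libraries only.

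The 10 strongest lost regions lay at 10 different places. They were in or near Creb5 (a CREB family factor), Slc14a2 (a urea transporter), Gm9817, Itgam (the integrin CD11b of myeloid cells), Runx1 (a RUNX factor of blood and mesenchymal cells), Snx29, Plekhb2, F830045P16Rik, Atp5mpl and Stk10. The Itgam region, chr7:128062706-128063353, also lies at the start of the overlapping gene model Gm49368. It ranked at percentiles 92.9, 93.0 and 91.4 at day 0 and was called in no WT day 9 library. It was called in every WT library of day 3, in WT day 6 replicates 1 and 3 and in DKO day 9 replicates 1 and 2. The region 42.0 kb from the start of Runx1, chr16:92867636-92868667, annotated as intronic, ranked at 92.4, 93.3 and 87.9. It was absent from the 3 WT day 9 libraries but called in every WT library of days 3 and 6 and in every DKO library of day 9, as was the region at F830045P16Rik.

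Days 3 and 6 were not used to choose the regions. Gained regions were called at 43.8%, 46.3% and 22.9% in the WT day 3 libraries and at 76.9%, 75% and 79.8% in those of day 6. Lost regions were still called at 33.2%, 36.4% and 14.5% at day 3 and at 13.8%, 12.8% and 16.0% at day 6. The low value at day 3 is replicate 3 each time, which also had the lowest share of held regions, and without it the day 3 means were 45.0% for gained and 34.8% for lost regions. Of the lost regions, 4075 (45.9%) were called in no library of days 3 and 6, and of the gained regions, 732 (7.77%) were called in none of them either. The share of held regions stayed between 83.9% and 95.9% at both days.

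The DKO libraries give the same regions in cells that the choice did not use. Gained regions were called at 8.70%, 20.8% and 14.2% in DKO day 0 libraries and at 89.4%, 86.6% and 86.1% in DKO day 9 libraries. Lost regions were called at 78.6%, 90.7% and 86.7% at day 0 and at 21.1%, 17.4% and 15.9% at day 9. Both groups were apart without overlap, with differences of 72.8 and −67.2 percentage points (exact permutation test, two-sided, p = 0.1 for each, the smallest that 20 relabellings allow). DKO day 0 replicate 2 had the highest share of all 3 sets at that day, and without it the differences were 75.9 and −64.5 points. For held regions the difference was 1.44 points (exact permutation p = 0.400), and 2.23 points without that library (exact permutation p = 0.1, the smallest that 10 relabellings allow).

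**Figure D2:**
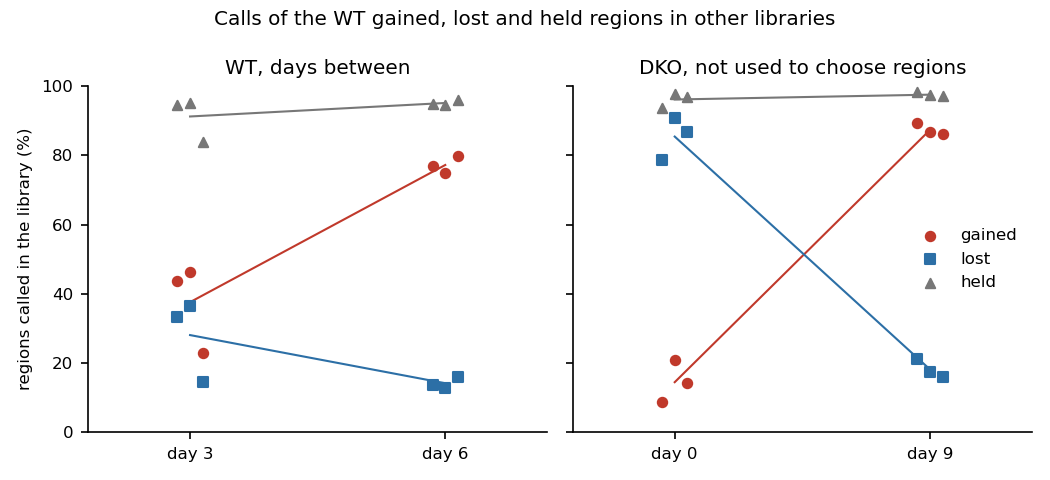
Percentage of WT gained, lost and held regions called in each library (points, lines join the means of 3 libraries) at WT days 3 and 6 (left) and at DKO days 0 and 9 (right). In the DKO libraries gained regions rise from 14.5% to 87.3% on average and lost regions fall from 85.4% to 18.2%.

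Among regions present at both days, strength was compared as the normal score of the within-list rank. The limma fit called 3021 held regions (8.08%) stronger and 2687 (7.19%) weaker at day 9 (adjusted p under 0.05). Of distal regions 9.64% were stronger and 8.10% weaker, and of promoters 6.61% and 6.33%. The balance rests on single libraries: 1559 were stronger and 2436 weaker without WT day 9 replicate 2, 1541 and 2155 without WT day 9 replicate 3, and 3101 and 1812 without WT day 0 replicate 2. A region 2.95 kb from the start of the olfactory receptor gene Olfr432 rose most, from percentiles 26.0, 0.316 and 30.4 to 94.6, 94.3 and 94.3 (normal score difference 2.88, SE 0.432, limma adjusted p = 2.03e-04). An intron of Per2, a gene of the circadian clock, went from 25.6, 63.4 and 65.0 to 99.8, 99.2 and 99.6 (difference 2.64, SE 0.224, limma adjusted p = 8.27e-07). The others near the top lay at Heg1, near Med4, in Cc2d2a and 67.5 kb from Cd180. Day 0 percentiles of several of these spread widely between replicates.

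The promoter of Laptm5, a lysosomal membrane protein gene of blood cells, weakened most. Its region chr4:130913358-130916205 ranked at 93.8, 91.6 and 95.9 at day 0 and at 1.35, 31.8 and 0.143 at day 9 (difference −3.44, SE 0.492, limma adjusted p = 1.08e-04). The promoter of Arhgap30 fell from 93.8, 92.3 and 94.1 to 3.35, 31.8 and 22.2 (limma adjusted p = 4.22e-05). Regions at Cadm2, Cdc42se2, Cdkal1 and Rgl1 weakened as well. Each of these 6 stood apart between the days without overlap, which adds no support, because they were chosen as the largest falls called.

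For each gene, the kb under peaks from 5 kb upstream to the gene end were summed in each library. Of 21911 protein-coding genes, 14297 had a peak in at least 3 of the 6 libraries and were tested with limma on log2(kb + 0.5). At day 9, 3142 genes (22.0%) had more and 1984 (13.9%) had less length under peaks (adjusted p under 0.05), so 61.3% of calls were higher. Scaled to the covered length of each library the numbers were 2902 and 2977, with 49.4% higher, so the balance of gain and loss depends on the scale. The median change of all genes tested was 0.0921 (log2) and −0.00505 when scaled. Gained regions lay in 2873 genes (13.1%) and lost regions in 2838 (13.0%). Of the genes called, 252 higher ones had no peak in any day 0 library and 246 lower ones had none in any day 9 library. Such genes passed the filter of 3 libraries through 1 day only, so their p-values add nothing to the lengths and are not printed.

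Zbtb16 changed most of all genes tested. The day 0 libraries had 1.07, 1.34 and 0.847 kb of it under peaks, and the day 9 libraries 83.7, 99.5 and 96.7 kb (log2 change 5.90, SE 0.136, limma adjusted p = 7.51e-07). Between them, day 3 stood at 46.5, 49.6 and 32.5 kb and day 6 at 75.8, 76.1 and 80.4 kb, so that the libraries of each time point lay above those of the one before. At day 9 peaks covered 44.8% to 53.2% of its window of 187 kb (chr9:48654297-48836222 plus 5 kb upstream). It held 51 gained and 0 lost regions, the most gained regions of any gene. Scara5, a ferritin receptor gene, went from 1.27, 1.69 and 1.99 kb to 43.4, 48.2 and 51.4 kb (log2 change 4.50, SE 0.142, limma adjusted p = 1.28e-06), with 29 gained regions. Fabp12, a fatty acid binding protein gene beside Fabp4, went from 0.176, 0.161 and 0.419 kb to 13.5, 15.4 and 15.0 kb (log2 change 4.34, SE 0.143, limma adjusted p = 1.28e-06).

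The other 7 genes of the 10 with the largest rise were Lgals12 (a galectin of the lipid droplet), Klb (the co-receptor of FGF21), Cidec (a lipid droplet protein), Fate1, Tmem266, Adcy5 (an adenylyl cyclase) and Gprc5b. Of these, Lgals12, Klb, Cidec, Fate1 and Tmem266 were listed at 0 kb in all day 0 libraries and held 5.33 kb or more in each day 9 library. With 50 kb either side of the gene start as the window the call of Tmem266 was lost (log2 change −0.25). Most gained regions after Zbtb16 lay in Gm20388, Slit3, Dlc1, Scara5 and Nfia. Slit3, a guidance ligand gene, held 33, Dlc1 30 and Nfia, a nuclear factor I gene, 26. Gm20388 is a model of 4435 kb that spans 73 other annotated genes and holds both the second most gained (34) and the most lost (62) regions, so its counts cannot be told apart from theirs.

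Of 20 adipocyte transcription factor genes, all tested, 15 had more length under peaks and 0 less (median log2 change 1.01). The shares of all genes tested were 22.0% and 13.9%. Among the 15, 1 (Esrrg) had no peak at day 0 and passed the filter through day 9 only. Pparg, the master regulator, rose from 1.95, 3.51 and 3.01 kb to 10.3, 14.5 and 15.8 kb (log2 change 2.09, SE 0.214, limma adjusted p = 1.74e-04). Its length at day 6 was 26.6, 23.5 and 27.1 kb, above all 3 libraries of day 9. Mlxipl, a carbohydrate response factor gene, rose from 0.295, 0.517 and 0.368 kb to 2.56, 2.96 and 2.91 kb (limma adjusted p = 1.97e-05). Cebpa, which works beside PPARγ, was at 2.78, 2.88 and 2.94 kb at day 0 and at 3.45, 3.63 and 3.74 kb at day 9 (log2 change 0.29, limma adjusted p = 0.0371). Its call was lost without any of 5 single libraries (WT day 0 replicates 1, 2 and 3 and WT day 9 replicates 2 and 3, limma adjusted p from 0.0782 to 0.112), and on the scaled lengths. With 50 kb either side of its start as the window, the log2 change was 1.4 (limma adjusted p = 1.39e-06). Zfp423 and Ppara also rose, and Esrrg, an orphan receptor gene, was listed at 0 kb at day 0 and held 1.17, 1.24 and 1.64 kb at day 9.

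Genes of lipid storage and synthesis rose together. Of 30 tested, 29 were higher, 0 lower and 1 not past the threshold (Elovl6), with a median log2 change of 1.59. Among all genes tested 22.0% were higher and 13.9% lower. Cidec and Plin5, 2 of the 29, had no peak at day 0 and passed the filter through day 9 only. Plin1 rose from 0.465, 0.413 and 0.595 kb to 9.91, 10.9 and 10.9 kb (log2 change 3.48, SE 0.105, limma adjusted p = 1.28e-06), and its promoter is shown above. Cidec was listed at 0 kb at day 0 and held 6.16, 6.31 and 6.79 kb at day 9, and Plin5, another droplet coat gene, was at 0 and then at 3.34, 4.18 and 3.58 kb. The fatty acid transporter gene Cd36 rose from 2.13, 2.13 and 0.917 kb to 16.1, 16.9 and 18.5 kb (log2 change 3.05, SE 0.230, limma adjusted p = 3.81e-05). Plin4 and the lipase gene Pnpla2 rose by 2.42 and 2.26 on the log2 scale. The list held 85 gained and 0 lost regions. Gained regions lay in 21 of its 31 genes, against 13.1% of all protein-coding genes. The summed length of the list was 60.2 to 71.5 kb at day 0, 59.5 to 99.1 kb at day 3, 238 to 254 kb at day 6 and 214 to 247 kb at day 9.

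**Figure D3:**
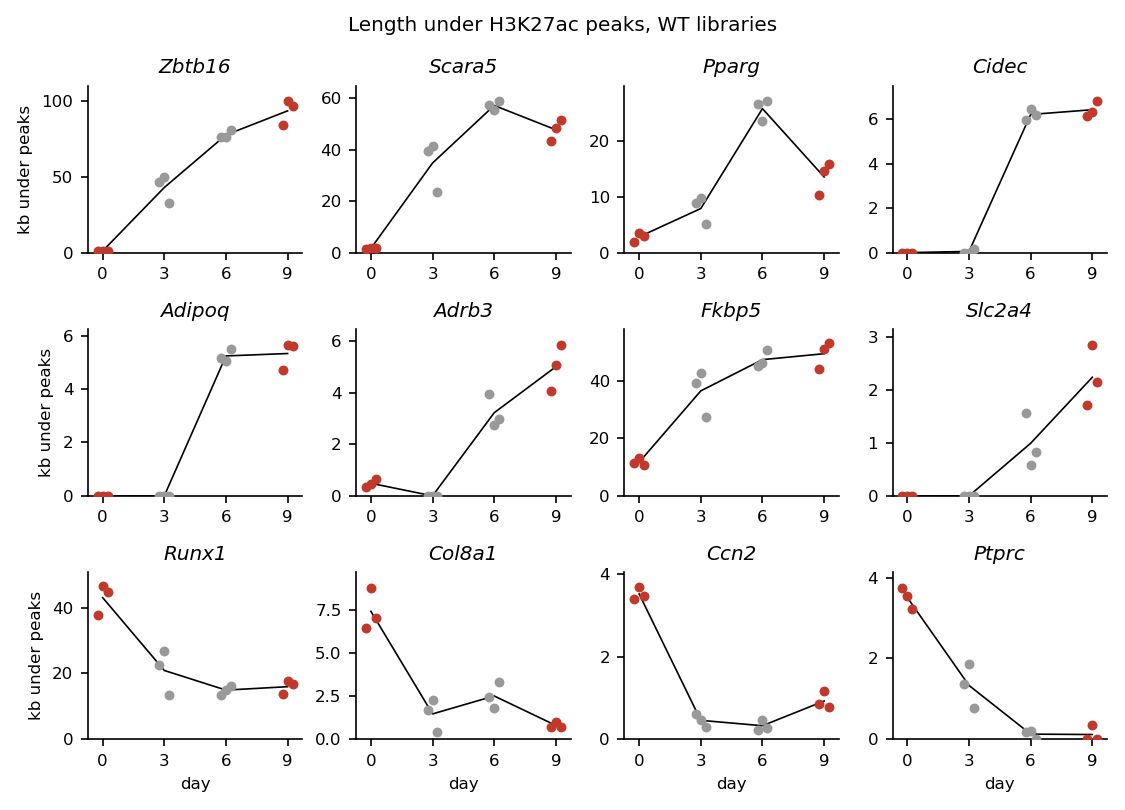
Kb under H3K27ac peaks (vertical axis, each panel on its own scale from 0) in each WT library by day for 12 genes, with days 0 and 9 in red, days 3 and 6 in grey and a line through the means. Zbtb16 and Fkbp5 have risen by day 3, Cidec and Adipoq are near 0 at day 3 and high at day 6, and Runx1, Col8a1, Ccn2 and Ptprc have fallen by day 3.

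The thermogenic list gave a mixed picture. Of 16 genes tested, 11 were higher, 1 lower (Acot11) and 4 not past the threshold (median log2 change 0.77). Among all genes tested 22.0% were higher and 13.9% lower. Of these 11, 3 had no peak at day 0 and passed the filter through day 9 only, so their calls add nothing. The list has 20 members, of which 4 were not tested. The β3-adrenergic receptor gene Adrb3 rose from 0.342, 0.469 and 0.651 kb to 4.06, 5.08 and 5.85 kb (log2 change 2.48, SE 0.159, limma adjusted p = 1.88e-05), Acsl1, which activates fatty acids, by 1.99 and Slc25a20, a mitochondrial carnitine carrier gene, by 1.56 on the log2 scale. Kcnk3 and Elovl3 were listed at 0 kb at day 0 and at 0.917 to 1.46 kb and 0.476 to 0.644 kb at day 9. Ucp3 did the same (1.02 to 1.72 kb) but not with 50 kb either side of its start (log2 change −0.27). Prdm16, the brown fat cofactor gene, went from 0.385, 0 and 0.760 kb to 1.37, 2.07 and 1.74 kb (limma adjusted p = 0.00805), and with the 50000 strongest peaks of each list the call was lost (limma adjusted p = 0.324). Ucp1, which defines brown adipocytes, was listed at 0 kb in all 6 libraries. Cidea, another brown marker, was at 0.294, 0.800 and 0.600 kb at day 0 and at 0.302, 0.685 and 0.323 kb at day 9 (limma adjusted p = 0.598). The brown marker Ppargc1a rose from 0.661, 0.923 and 0.423 kb to 1.41, 2.21 and 2.04 kb (log2 change 1.04, limma adjusted p = 0.00381). Dio2 went from 0, 0.232 and 0 kb to 0.391, 0.512 and 0.427 kb (log2 change 0.73, limma adjusted p = 0.0221). Cox7a1 did not pass the threshold (limma adjusted p = 0.0947), and Cox8b was not tested.

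Adipokine genes rose, with 8 of 10 tested higher, 0 lower and 2 not past the threshold (median 1.02), against 22.0% higher of all genes. Of these 8, 3 had no peak at day 0 and passed the filter through day 9 only, so their calls add nothing. The list has 12 members, of which 2 were not tested. Adipoq, which encodes adiponectin, was listed at 0 kb at day 0 and held 4.73, 5.66 and 5.60 kb at day 9, and Retn, the resistin gene, was at 0 and then at 2.19, 2.65 and 2.24 kb. Among 15 insulin, IGF and glucose genes 9 were higher, 1 lower (Slc2a1) and 5 not past the threshold (median 0.55). All genes tested had shares of 22.0% higher and 13.9% lower. Of the 9, 1 (Slc2a4) passed the filter through day 9 only. Slc2a4, the insulin-regulated glucose transporter gene, was listed at 0 kb in every day 0 library and held 1.71, 2.85 and 2.15 kb at day 9. The insulin receptor gene Insr rose from 4.95, 5.46 and 4.34 kb to 13.2, 16.1 and 17.6 kb (log2 change 1.57, SE 0.134, limma adjusted p = 6.82e-05). The call of Slc2a1 as lower was lost without WT day 0 replicate 2 or 3 or WT day 9 replicate 3, where 0 genes of the list were lower.

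Genes known to answer glucocorticoids and cAMP were higher or did not pass the test. Of 16 tested, 8 were higher, 0 lower and 8 not past the threshold (median 0.43), against 22.0% and 13.9% of all genes. Fkbp5 rose from 11.3, 13.2 and 10.6 kb to 44.3, 51.0 and 53.1 kb (log2 change 2.04, SE 0.119, limma adjusted p = 1.31e-05), with 15 gained regions. Pde3b, the phosphodiesterase of insulin signalling, rose by 2.15 and Tsc22d3 (GILZ), a glucocorticoid target gene, by 1.90 on the log2 scale. Dexamethasone and IBMX were in the medium of the first 4 days only.

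**Figure D4:**
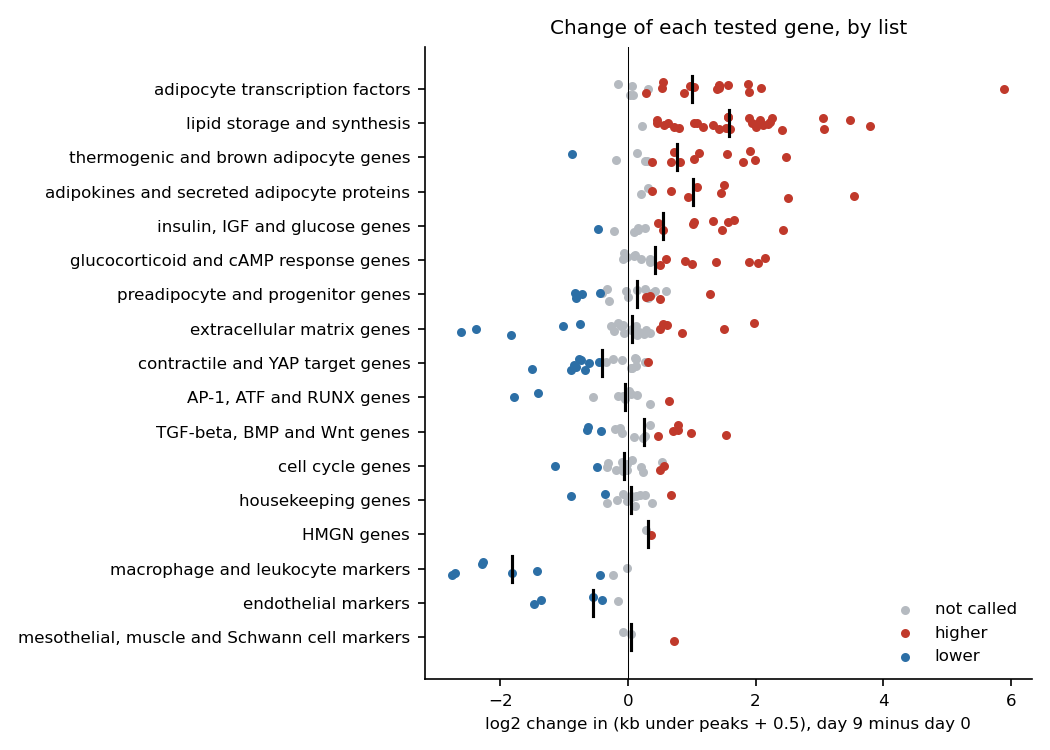
Log2 change in (kb under peaks + 0.5), day 9 minus day 0, of each tested gene (points, spread vertically at random) in 17 gene lists, coloured by the limma call, with a black bar at the median of each list. Lipid genes lie to the right of 0, contractile genes and leukocyte markers mostly to the left, and housekeeping genes near 0.

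Progenitor genes were called at a share near that of all genes tested (22.0% higher and 13.9% lower). Of 19 tested, 4 were higher, 4 lower and 11 not past the threshold (median 0.14), and on scaled lengths 3 were higher and 6 lower. The higher count was 2 without WT day 0 replicate 2 or WT day 9 replicate 2 and 7 without WT day 9 replicate 1, and the lower count was 2 without WT day 0 replicate 2 or 3 or WT day 9 replicate 2. The preadipocyte marker gene Pdgfra stood at 9.30, 11.3 and 10.5 kb at day 0 and at 10.4, 11.7 and 12.3 kb at day 9 (limma adjusted p = 0.365). Other preadipocyte markers went both ways. Pi16 (log2 change −0.81, limma adjusted p = 0.0233) and Thy1 (−0.43, limma adjusted p = 0.0430) were called lower. Ly6a was called higher (0.29, limma adjusted p = 0.0353). Pdgfrb (−0.30) and Dpp4 (0.42) did not pass the threshold, and Dlk1 was not tested. Wnt5a, a Wnt ligand gene, fell from 3.99, 4.51 and 4.60 kb to 2.23, 2.07 and 2.41 kb (log2 change −0.83, SE 0.101, limma adjusted p = 4.02e-04). Cd34, 1 of the 4 called higher, was at 0 kb at day 0 and at 0.508, 0.914 and 0.795 kb at day 9. It passed the filter through day 9 only, and was not called with 50 kb either side of its start.

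Extracellular matrix genes were called at a share near that of all genes as well. Of 25 tested, 6 were higher, 5 lower and 14 not past the threshold (median 0.06), and on scaled lengths 7 were higher and 10 lower (median −0.0405). The basement membrane collagen genes Col4a1 and Col4a2, which lie head to head and share upstream peaks, rose by 1.97 and 1.51 on the log2 scale, Col4a1 from 12.7, 14.4 and 14.7 kb to 48.7, 60.9 and 59.6 kb (SE 0.119, limma adjusted p = 1.44e-05). Col8a1 fell from 6.43, 8.80 and 7.03 kb to 0.716, 0.978 and 0.689 kb (log2 change −2.61, SE 0.142, limma adjusted p = 9.26e-06), and Tnc, the tenascin C gene, from 4.77, 5.90 and 5.25 kb to 0.619, 0.743 and 0.499 kb (limma adjusted p = 6.73e-06). Timp3, a protease inhibitor gene, and Col1a2, a chain of fibrillar collagen, fell by 1.84 and 1.02 on the log2 scale.

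Contractile and YAP target genes were lower or did not pass the test, but for 1. Of 20 tested, 10 were lower, 1 higher (Axl, with 0 without WT day 0 replicate 1, 2 or 3 or WT day 9 replicate 2 or 3) and 9 not past the threshold (median −0.41). Among all genes tested 13.9% were lower and 22.0% higher. Ccn2, a YAP target encoding CTGF, fell from 3.41, 3.68 and 3.48 kb to 0.840, 1.16 and 0.769 kb (log2 change −1.51, SE 0.120, limma adjusted p = 4.90e-05). Cald1 (caldesmon) fell from 32.8, 39.7 and 37.2 kb to 16.7, 22.8 and 22.8 kb with 7 lost regions (limma adjusted p = 0.00311), and Myl9, a myosin light chain gene, from 2.16, 2.18 and 2.09 kb to 0.970, 0.993 and 1.01 kb (limma adjusted p = 2.00e-04).

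Of 12 AP-1, ATF and RUNX genes, 2 were lower, 1 higher (Fosl1, 2 without WT day 9 replicate 1) and 9 not past the threshold, and on scaled lengths 4 were lower. The lower share was near the 13.9% of all genes tested, and the higher share was below their 22.0%. Runx1 fell from 37.8, 46.6 and 44.7 kb to 13.6, 17.6 and 16.6 kb with 13 lost regions (log2 change −1.41, SE 0.130, limma adjusted p = 1.01e-04). Atf3, a stress response factor gene, fell from 5.45, 5.71 and 5.30 kb to 0.859, 1.48 and 1.48 kb with 7 lost regions (log2 change −1.78, SE 0.154, limma adjusted p = 7.35e-05). Of 16 TGF-β, BMP and Wnt genes, 6 were higher, 3 lower and 7 not past the threshold (on scaled lengths 6 higher and 5 lower). Among them were Wnt10b (0 kb at day 0, 0.764, 1.10 and 1.00 kb at day 9) and Tgfb1, which fell by 0.64 on the log2 scale. Of the 6, 2 had no peak at day 0 and passed the filter through day 9 only.

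Of 17 cell cycle genes, 2 were higher, 2 lower and 13 not past the threshold, and without 1 library the higher count was 0 (WT day 9 replicate 3), 1 (WT day 0 replicates 1 and 3 and WT day 9 replicates 1 and 2) or 3 (WT day 0 replicate 2), and the lower count 1 (WT day 0 replicates 1 and 3). Ccnd1, cyclin D1, fell from 3.98, 5.80 and 5.86 kb to 1.68, 2.34 and 2.21 kb (log2 change −1.14, SE 0.166, limma adjusted p = 0.00110). Of 14 housekeeping genes, 1 was higher, 2 lower and 11 not past the threshold (median 0.06, and on scaled lengths 1 higher and 4 lower with a median of −0.0544), with 0 higher without WT day 0 or day 9 replicate 3 and 2 higher without WT day 9 replicate 1. Its lower count was 0 without WT day 0 replicate 2 and 1 without WT day 0 replicate 3 or WT day 9 replicate 2 or 3. For cell cycle and housekeeping genes the lower share was near the 13.9% of all genes tested, and the higher share was below their 22.0%. Hmgn2 was not past the threshold, and Hmgn1 was called higher (log2 change 0.36, limma adjusted p = 0.0315) with all libraries, but not on scaled lengths and not without any single library other than WT day 9 replicate 1 (adjusted p from 0.0681 to 0.108).

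The genes that lost most of the mark included many known from blood cells. The 10 with the largest fall were Gm49339, Cyth4, Cass4, Fmnl1, Cd84, Scimp, Lcp1, Pilra, Cd180 and Dock8. Gm49339 overlaps Lilr4b and Lilrb4a, inhibitory receptor genes of leukocytes, and fell from 9.60, 10.5 and 10.3 kb to 0.179, 0.493 and 0.172 kb (log2 change −3.79, SE 0.158, limma adjusted p = 3.72e-06). Lcp1, the L-plastin gene of blood cells, fell from 12.4, 15.4 and 12.7 kb to 0.908, 0.342 and 1.24 kb (log2 change −3.45, SE 0.244, limma adjusted p = 2.91e-05) with 11 lost regions. Scimp, an adaptor gene of antigen-presenting cells, and Pilra, a myeloid receptor gene, held 4.07 kb or more in every day 0 library and were listed at 0 kb in every day 9 library. Fmnl1, Cd84, Cd180 and Dock8 are also known from leukocytes.

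Markers of macrophages and other leukocytes moved the same way. Of 9 markers tested of a list of 10, 7 were lower, 0 higher and 2 not past the threshold (Cd68 and Cd79a), with a median log2 change of −1.81. The lower share of all genes tested was 13.9%. Their summed length was 31.0 to 34.9 kb at day 0, 17.2 to 28.7 kb at day 3, 12 to 13.6 kb at day 6 and 7.70 to 10.6 kb at day 9, and in DKO libraries 42.6 to 80.4 kb at day 0 and 11.3 to 15.1 kb at day 9. Ptprc (CD45), which is found on all leukocytes, was at 3.75, 3.55 and 3.23 kb at day 0 and at 0, 0.339 and 0 kb at day 9 (log2 change −2.75, SE 0.204, limma adjusted p = 3.57e-05). Lyz2, lysozyme of myeloid cells, fell from 4.77, 5.46 and 5.43 kb to 0.165, 0.519 and 0.477 kb (limma adjusted p = 1.57e-05) and Adgre1 (F4/80), a macrophage marker, from 2.0, 1.28 and 1.54 kb to 0, 0 and 0.339 kb (limma adjusted p = 5.91e-04). The T cell gene Cd3e was at 0 kb in all 6 libraries. The marker list held 11 lost regions, which lay in 5 of its 10 genes, against 13.0% of all protein-coding genes with a lost region. Another 20 leukocyte genes were picked after the values were seen, so that 18 of 18 tested being lower follows from the choice and supports nothing. At day 0, 1, 1 and 2 of the 10 markers were at 0 kb, and at day 9, 4, 2 and 3. The part of leukocytes in the losses reported above, at Runx1, Laptm5 and Itgam among others, was not tested.

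**Figure D5:**
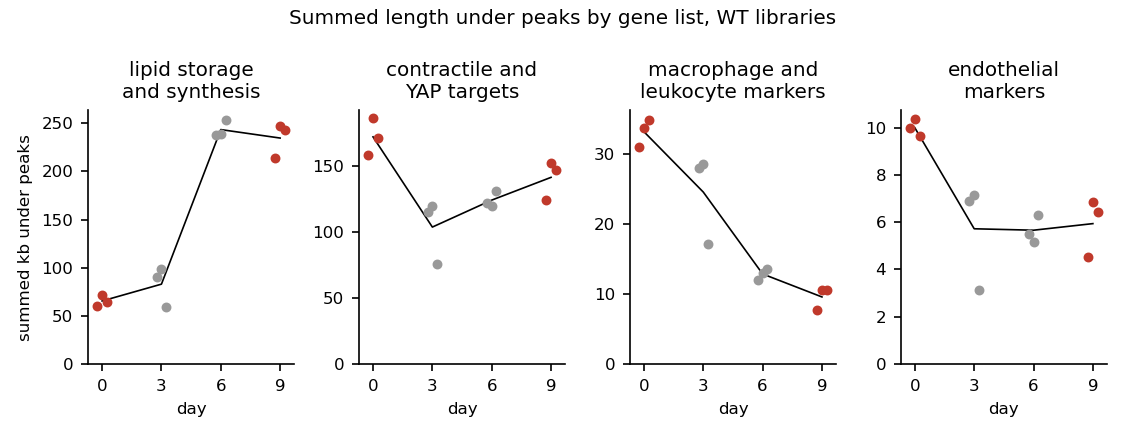
Summed kb under peaks over each gene list in each WT library by day, each panel on its own scale from 0, with days 0 and 9 in red and a line through the means. The leukocyte marker sum falls from 31.0 to 34.9 kb at day 0 to 7.70 to 10.6 kb at day 9, while the lipid list rises from at most 71.5 kb to at least 214 kb.

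Endothelial markers fell as well, at a lower level. Of 5 tested of 7, 4 were lower and 1 (Tek) was not past the threshold, with 2 lower without WT day 0 replicate 2 or 3. The lower share of all genes tested was 13.9%. Cdh5 (VE-cadherin) was at 0.953, 0.909 and 0.798 kb at day 0 and at 0 kb in the 3 day 9 libraries, and the summed length of the list went from 9.64 to 10.4 kb to 4.54 to 6.86 kb. Of 10 mesothelial, muscle and Schwann cell markers 3 were tested and 1 was higher (Upk3b, 0 without WT day 9 replicate 3), while Myod1, Myf5, Myog and Sox10 were at 0 kb throughout. Upk3b had no peak at day 0 and passed the filter through day 9 only. The part of endothelial cells in the losses was not tested.

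The genes with most lost regions after Gm20388 are in none of the marker lists. Tns3 (tensin 3, an adhesion protein) held 21, Rnf150 20, Fnbp1 18, Rbpj (the DNA-binding partner of Notch) 17 and Fat3 (an atypical cadherin) 17 lost regions. Fat3 fell from 19.1, 22.4 and 19.6 kb to 2.45, 3.70 and 3.41 kb (log2 change −2.51, SE 0.148, limma adjusted p = 1.33e-05). Rnf150 fell from 32.4, 39.7 and 36 kb to 6.85, 10.6 and 10.3 kb (log2 change −1.93, SE 0.170, limma adjusted p = 8.13e-05). Tns3 fell from 38.9, 45.8 and 43.2 kb to 10.5, 14.7 and 13.6 kb, and was lower still at day 6 with 6.73, 5.55 and 6.81 kb. Each of these 5 genes was below its day 0 values in all 3 libraries of day 3. The share of all genes that were so is not given here. The day 3 lists were also low elsewhere, with summed housekeeping lengths of 38.6 to 50.6 kb against 50.4 to 54.1 kb at day 0. An early fall particular to these 5 genes can therefore not be read from day 3.

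The shares of peaks with a motif differed by less than 1 percentage point between the days when all peaks were used. Among distal peaks of a library, 7.31% ± 0.0317 held the C/EBP motif within 100 bp of the summit at day 0 and 7.49% ± 0.0415 at day 9 (SD, n = 3, exact permutation p = 0.1), and 6.47% ± 0.0601 and 6.01% ± 0.112 held the EBF motif (exact permutation p = 0.1). The days did not overlap in either share, and the sign of the C/EBP difference turned with the 20000 strongest peaks of each list (−0.294 points), where the EBF difference was −1.36 and the glucocorticoid receptor difference 0.609 points (exact permutation p = 0.1 for each). Shares of the AP-1, glucocorticoid receptor, TEAD (ACATTCC) and RUNX motifs differed with exact permutation p of 0.200 or more over all peaks. The PPAR/RXR DR1 and NF1 motifs, searched as long exact patterns, lay in 0.0543% and 0.0159% of day 0 and in 0.0503% and 0.0164% of day 9 peaks. Counted over whole distal regions, the C/EBP motif occurred 0.508 times per kb in gained, 0.473 in held and 0.421 in lost regions. The glucocorticoid receptor motif occurred 0.396 times per kb in gained, 0.355 in held and 0.359 in lost regions, and the RUNX motif 0.218, 0.238 and 0.253 times. In the same order, the AP-1 motif occurred 0.341, 0.423 and 0.345 times, the EBF motif 0.301, 0.359 and 0.319 times and the TEAD motif 0.162, 0.187 and 0.151 times, each highest in held regions. These densities describe the sets and carry no test.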

How the data were processed

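H3K27ac ChIP-seq libraries (75-base single-end reads) were trimmed with cutadapt 1.18, aligned with BWA to mm10 and called with MACS2 2.1.1.20160309 by the authors, in each library on its own. The control library and calling options are not given in the sources used here. The deposited lists hold for each peak the fold over the local background (a ratio), the −log10 p-value and the −log10 q-value, and no read totals, so relative depth was read from the whole-read steps of the fold. From these lists, peaks overlapping by 1 bp were merged, ranked within a list by −log10 q, and placed on GENCODE M21 (promoter within 1 kb of a start). Normal scores of held regions and log2(kb + 0.5) by gene were fitted with limma 3.58.1 (trend, robust) in R 4.3.3, with Benjamini-Hochberg adjustment, after tests on simulated data. Of 200 genes changed there by 0.5, 1.0 or 2.0, the fit recovered 0, 136 and 197. Of 200 held regions it recovered 0, 0 and 139. A gene or held region not past the threshold may therefore have changed. The simulated share of changed features, 200 of 14297 genes or of 37389 held regions, was below the share called in the data. Because the adjustment depends on that share, these recoveries do not give the power of the fit in the data. Some smaller changes did pass in the data, such as Cebpa at 0.29. Library values were compared by exact permutation. Genes named were up to 6 per list, the 10 largest changes per direction, the 10 strongest gained and lost and 6 stronger and weaker held regions, and the 6 genes with most gained or lost regions. Members and lists were chosen with earlier results of these data known, and 1 leukocyte list and 1 alternative were added after seeing the values. Input libraries (16) were not used here.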

Additional observations from a re-analysis of the deposited data

How the results depend on the processing

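Of the comparisons of regions, libraries and all genes, 187 values counted as unchanged under the alternatives, 21 moved and 12 turned sign. Counts were taken as unchanged within 1.5 times, and shares at promoters and at day 3 within their spread. Library measures and DKO differences were taken as unchanged when the sign held, whatever the size. The difference in covered length, 4.89 Mb, was 0.265 Mb with windows of 250 bp either side of summits and still counted as unchanged. With the 50000 strongest peaks of each list 5005 regions were gained, 4469 lost and 22045 held, 18.1%, 22.0% and 67.8% of them at promoters, and 1529 held regions were stronger and 1474 weaker. With the 20000 strongest peaks 1683 were gained, 1375 lost and 10357 held, 1168 genes were higher and 645 lower, the C/EBP difference was −0.294, DR1 0.00963 and NF1 −0.00551 percentage points. NF1 was −0.00347 at −log10 q of at least 5. With promoters within 2.5 kb the shares were 23.6%, 26.9% and 57.5%. Scaled to covered length 2977 genes were lower. Leaving out 1 library gave 10356 to 15915 gained, 9562 to 13521 lost, 1541 to 3101 stronger and 1811 to 2436 weaker held regions. It gave 2219 to 3551 genes higher and 1470 to 1862 lower, and differences of −4140 to 5997 in peak number, −0.0102 to 0.00453 (DR1), −0.0122 to 0.0766 (glucocorticoid receptor) and −0.00319 to 0.00470 (NF1). Of 115 named genes called, 76 were called under each of the 15 settings in which they were tested. Some genes were not tested in every setting. Turned in sign were, with 50 kb either side of the start, Ucp3 (−0.27), Thy1 (0.24), Tagln (0.17), Tmem266 (−0.25) and Gm20388 (1.16), with the 20000 strongest peaks Ccne1 (−0.29), Pdgfra (−0.02) and Gm20388 (0.00), Cidea at −log10 q of at least 5 (0.05) and with the 50000 strongest (0.24), and Gm20388 without WT day 9 replicate 1 (−0.13 to 0.02 over the 6 libraries left out in turn). The causes were not tested. Whether same-numbered libraries share a culture is not given by the labels. Across the days, same-numbered libraries correlated at 0.0650, 0.0187 and −0.0126 in their deviations by gene, and differently numbered ones at −0.0633 to 0.0510. With 3 libraries a day these values cannot decide on pairing. With the replicate block 3634 genes were higher and 2298 lower, 3511 held regions were stronger and 3089 weaker, and 0 named calls were lost. Read totals are not in the lists, so a peak missing from 1 library may be absent or under the threshold at its depth.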
